A study of Mus musculus with 4 samples.

Results

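The adipocyte and lipid storage genes examined here comprised 37 genes of fat cell formation, lipid droplets, triglyceride synthesis and breakdown, adipokines and heat production, chosen by gene symbol. All 37 were present among the 54532 genes of the count table, and 21 of them passed the filter used here, a mean of at least 1 CPM (reads scaled to a common library size) over the libraries. The other 16 stayed under it, and 5 of those had no count in any library. mRNA was sequenced in C3H10T1/2 cells, a mouse mesenchymal stem cell (MSC) line able to form bone, cartilage, fat and muscle cells, to follow how loss of DNMT1, the maintenance DNA methyltransferase, alters expression before and during early osteoblast (OB) differentiation. The control library came from cells given control siRNA for 48 h, and the siDNMT1 library from cells given DNMT1 siRNA for the same time. The OB library came from control siRNA cells, and the siDNMT1_OB library from DNMT1 siRNA cells, that were then kept in osteogenic medium (ascorbic acid, 50 µM; β-glycerophosphate, 10 mM; dexamethasone) for 3 days. All 4 groups share the cell line and a transfection. Which DNMT1 siRNA was used for these RNA samples, and when the untreated cells were harvested, is not given in the sources used here.

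Each group was 1 library, so the differences below lack a check against replicates, and p-values are not given. Genes are called higher or lower where the log2 fold change reached 1 in either direction. Brackets give exact 95% counting intervals of the ratio of reads, which cover counting error only. They hold no spread between cultures, because each group was 1 library. The reads carried no molecular identifiers to tell copies of the same molecule apart. Fold changes were computed with 2 counts added, whereas the intervals were not. Total counts ran from 22296046 in OB to 27367792 in control. The floor used here, 3 counts or fewer for a gene near absent, thus equalled between 0.111 and 0.133 CPM.

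Fat cells arise from mesenchymal precursors when early factors such as C/EBPβ, C/EBPδ and the glucocorticoid receptor switch on Pparg and Cebpa, which sustain each other and turn on the genes of lipid uptake, storage and secretion. Triglyceride is built from glycerol phosphate and fatty acids, stored in droplets coated by perilipins and released by a chain of lipases. The same precursors form osteoblasts, and dexamethasone is a component of both osteogenic and adipogenic media.

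The promoters of the 4 members below are shown because of their levels. Klf15, G0s2 and Plin4 were among the members furthest above control in OB. Cebpa had the largest log2 fold change in siDNMT1 against control, with 2 counts added. As a plain ratio of reads, Lpl stood above it, at 2.647 beside 2.565. Fabp4, which also stood far above control in OB, had no entry. Each run is the 250 bases before the gene start, read 5′ to 3′ on the strand of the gene, from RefSeq on build GRCm38.p6. Gene starts here are those of RefSeq, so 21 bases of the Plin4 window and 29 of the G0s2 window lie inside the gene as the count table spans it. Capitals mark CpG dinucleotides, the sites that DNMT1 methylates.
Klf15 (chr6:90462326-90462575, plus strand): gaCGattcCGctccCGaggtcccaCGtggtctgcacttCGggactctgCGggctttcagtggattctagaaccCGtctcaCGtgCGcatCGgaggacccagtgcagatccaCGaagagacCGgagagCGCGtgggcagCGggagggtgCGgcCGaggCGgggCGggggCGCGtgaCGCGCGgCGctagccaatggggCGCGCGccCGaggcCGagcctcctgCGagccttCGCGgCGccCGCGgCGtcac
G0s2 (chr1:193273189-193273438, minus strand): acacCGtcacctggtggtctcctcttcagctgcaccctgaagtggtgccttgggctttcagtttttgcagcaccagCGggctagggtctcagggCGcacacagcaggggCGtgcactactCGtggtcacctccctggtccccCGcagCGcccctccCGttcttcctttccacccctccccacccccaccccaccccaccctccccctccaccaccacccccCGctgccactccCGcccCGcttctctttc
Plin4 (chr17:56109783-56110032, minus strand): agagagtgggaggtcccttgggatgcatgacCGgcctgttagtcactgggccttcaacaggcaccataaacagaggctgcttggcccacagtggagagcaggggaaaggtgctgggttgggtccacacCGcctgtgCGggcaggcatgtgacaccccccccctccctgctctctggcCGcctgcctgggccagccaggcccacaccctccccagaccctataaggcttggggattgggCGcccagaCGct
Cebpa (chr7:35119043-35119292, plus strand): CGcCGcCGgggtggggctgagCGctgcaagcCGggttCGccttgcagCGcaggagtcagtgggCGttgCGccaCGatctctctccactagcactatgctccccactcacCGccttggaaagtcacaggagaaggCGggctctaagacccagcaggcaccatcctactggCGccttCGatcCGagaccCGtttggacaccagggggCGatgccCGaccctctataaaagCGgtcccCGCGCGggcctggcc

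These promoters held 37 CpG in Klf15, 22 in Cebpa, 11 in G0s2 and 6 in Plin4. Over the 32851 promoters of the same length the median was 6 and the quartiles were 2 and 16, so Klf15 and Cebpa lay above the upper quartile, G0s2 between the median and that quartile, and Plin4 at the median. Methylation at these sites was not analysed here. In all 8 motifs were searched on both strands. The E-box CACGTG, present in 6.02% of all promoters, lay at 228 to 223 and at 172 to 167 bases before the start of Klf15, which also held a CCAAT box at 62 to 58. CCAAT or its complement is found in 33.8% of promoters and also lay 18 to 14 bases before the RefSeq start of Plin4, on the opposite strand and within the bases that the count table places in the gene. A TATAAA, found in 12.4% of promoters, lay 30 to 25 bases before the start of Cebpa. The core hexamers AGAACA of glucocorticoid receptor sites and AGGTCA of nuclear receptor sites, in 16.1% and 14% of all promoters, and TTGCNNAA of C/EBP sites, in 9.56%, had no match in these 4 windows, nor did the inverted repeat of AGAACA with 3 bases between (0.00913% of promoters) or the direct repeat of AGGTCA with 1 base between (0.0335%), which says only that those letters are not there.

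Dnmt1 was examined in every library as a check of the labels. Control held 265 CPM and siDNMT1 132, against 85.4 in OB and 93.1 in siDNMT1_OB. The log2 fold change was −1.01 in siDNMT1 against control but 0.12 (0.04 to 0.21) in siDNMT1_OB against OB. The last library is therefore named by its label below, and every direction drawn from it rests on its label. The mesenchymal cell markers were abundant, with 11 of 12 past the filter, whereas of 8 osteoblast markers only Runx2, Spp1 and Dmp1 passed it, and Alpl stayed at 2 counts or fewer in every library. The summed level of the osteoblast markers, mostly Spp1 (osteopontin), was 627 CPM in control and 304 in siDNMT1, against 261 in OB and 361 in the library labelled siDNMT1_OB. In OB against control Spp1 was lower by −1.55 and Dmp1 by −2.81, while Runx2 differed by −0.06, and Spp1 was lower by −1.41 in siDNMT1 against control. Of the 11 mesenchymal markers past the filter, 1, Pdgfra, was past the fold in OB against control (2.46), with 6 above 0, 5 below and a median of 0.05, and 1, Ly6a, in siDNMT1 against control (−1.03, median 0.04). On induction in DNMT1 siRNA cells 2 of these 11 were higher, Thy1 (1.22) and Pdgfra (1.56), with 8 above 0 and a median of 0.34. In siDNMT1_OB against OB none of them was past the fold, and Dmp1 was higher by 1.76. The part of these markers in the members' values was not tested. Among 8 macrophage markers Adgre1 and Tyrobp had no counts, and their summed level stayed between 10.2 and 12.8 CPM. Among 7 endothelial markers Cldn5 and Tie1 had no counts, and the sum, nearly all Tek, was 2.29 CPM in control and 6.21 in siDNMT1, against 3.18 in OB and 7.85 in the library labelled siDNMT1_OB.

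Per kilobase of exon, Plin2 was the most abundant member at a mean of 44.9 CPM per kb, followed by Plin4 at 19.7, Pparg at 12.3 and Ebf1 at 12.2. Plin2 kept its first place in every library. Plin4, by contrast, stood at 6.18 CPM per kb in control, below Pparg at 11.5, and at 36.1 in OB, above Pparg at 15.4. The summed level of all 37 members was 435 CPM in control and 457 in siDNMT1, against 908 in OB and 774 in the library labelled siDNMT1_OB, so both OB libraries lay above both others. Most of the sum in OB came from Plin4 at 208, Plin2 at 198 and Ebf1 at 178 CPM. In control these had 35.7, 114 and 75 CPM.

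**Figure D1:**
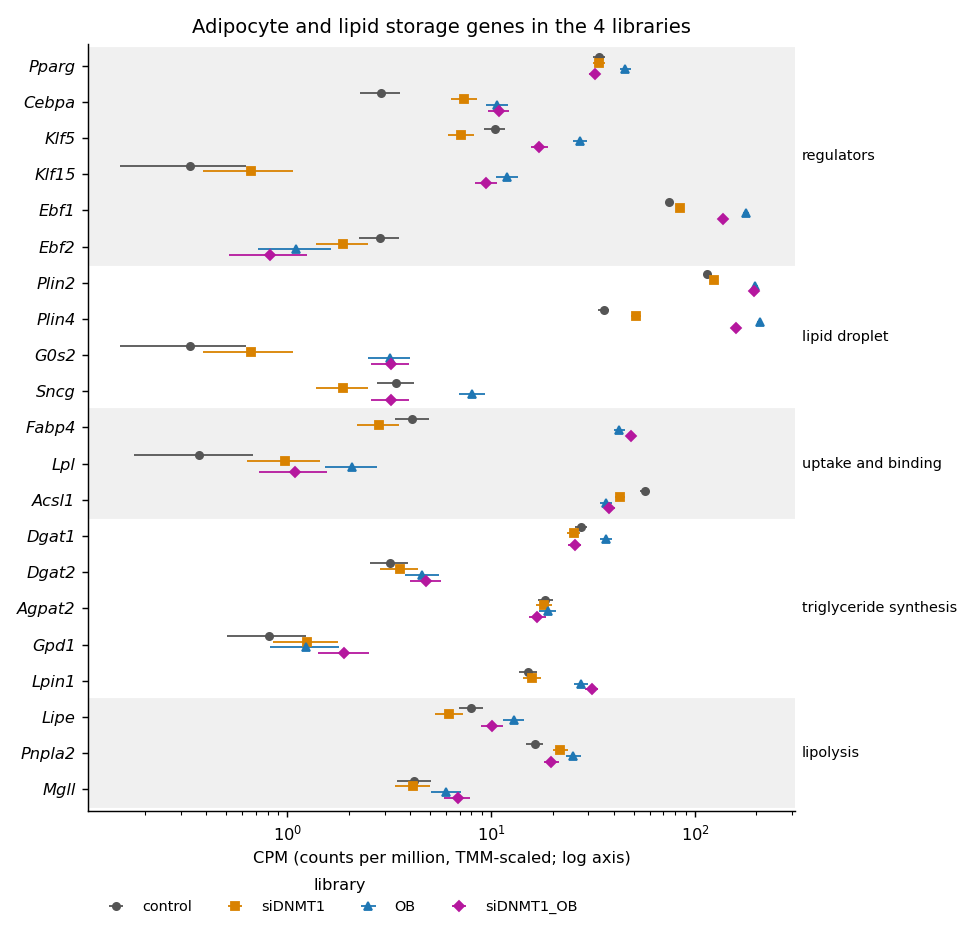
Level of each of the 21 members past the filter in each of the 4 libraries, as CPM on a log axis, with lines for the exact 95% counting interval of each library. Fabp4, Klf15, Plin4 and G0s2 lie higher in both OB libraries than in both others, whereas Agpat2 lies within 16.9 to 19 CPM in all 4.

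OB induction was read first, as OB against control. Of the 21 members past the filter, 9 were higher and 1 was lower in OB, where 10.6% of all 13233 genes tested were higher and 7.1% were lower. The higher members were Klf15, Fabp4, G0s2, Plin4, Lpl, Cebpa, Klf5, Ebf1 and Sncg, and the lower one was Ebf2. The median log2 fold change of the 21 was 0.79 beside 0.01 over all genes tested, with 19 above 0 and 2 below. Klf15, G0s2, Lpl and Gpd1 had under 1 CPM in control and passed the filter through other libraries. In the DNMT1 siRNA cells, as the library labelled siDNMT1_OB against siDNMT1, 5 members were higher and 1 was lower, beside 6.83% and 2.71% of all genes tested. These were Fabp4, Klf15, G0s2, Plin4 and Klf5, with Ebf2 lower, and the median was 0.65 beside 0.00. The OB comparisons share no library with each other, but each shares a library with each siRNA comparison below. In bulk samples, fewer cells of a type and less RNA per cell cannot be told apart.

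**Figure D2:**
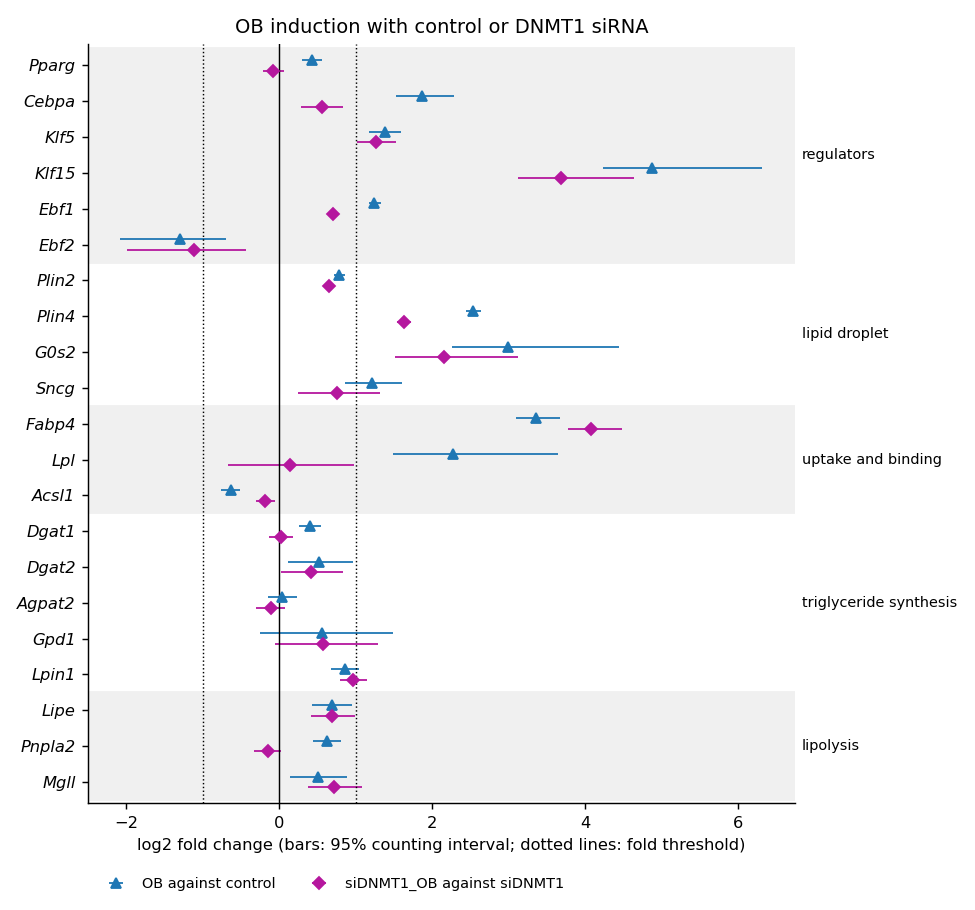
Log2 fold change with OB induction for each of the 21 members, in control siRNA cells (OB against control) and in DNMT1 siRNA cells (library labelled siDNMT1_OB against siDNMT1), with 95% counting intervals and lines at the fold used for calling. Klf15 and Fabp4 lie furthest right in both, and Ebf2 lies left of 0 in both.

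Among the transcriptional regulators, Pparg, the nuclear receptor that directs fat cell differentiation, was well expressed before induction. It had 918 counts in control and 868 in siDNMT1, against 1029 in OB and 860 in the library labelled siDNMT1_OB, or 33.8, 33.9, 45.5 and 32.1 CPM. OB was the highest library and the other 3 lay close together. The log2 fold change was 0.43 (0.30 to 0.56) in OB against control, and −0.08 (−0.21 to 0.06) in the DNMT1 siRNA cells.

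Cebpa (chr7:35119293-35121928, plus strand, coordinates on GRCm38), the C/EBP factor that works with Pparg, had 78 counts in control and 189 in siDNMT1, against 242 in OB and 291 in the library labelled siDNMT1_OB. Control was the lowest, siDNMT1 was intermediate, and the OB libraries were level at 10.7 and 10.9 CPM. It was higher in OB than in control by a log2 fold change of 1.87 (1.52 to 2.28). Klf15 (chr6:90462576-90475238, plus strand), a glucocorticoid-responsive Krüppel-like factor that promotes Pparg expression, had 9, 17, 271 and 253 counts in the same order of libraries. Its levels were 0.33 and 0.66 CPM without induction and 12 and 9.45 CPM with it. The log2 fold change was 4.88 (4.23 to 6.32) in control siRNA cells, the largest of any member, and 3.68 (3.13 to 4.63) in DNMT1 siRNA cells.

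Klf5, an early activator of Pparg, had 10.4 CPM in control and 7.14 in siDNMT1, against 27.2 in OB and 17.3 in the library labelled siDNMT1_OB, with log2 fold changes on induction of 1.38 (1.18 to 1.59) and 1.26 (1.02 to 1.53). Ebf1, an early B cell factor family member that also acts in adipogenesis, had 75, 84.4, 178 and 137 CPM, and differed by 1.25 (1.17 to 1.33) and 0.70 (0.62 to 0.78). Both were thus highest in OB. Ebf2, its relative that marks brown fat precursors, went the other way, with 77, 48, 25 and 22 counts and log2 fold changes of −1.30 (−2.07 to −0.69) and −1.12 (−1.99 to −0.43). Ppargc1a, the coactivator of mitochondrial genes, had 3 counts in the library labelled siDNMT1_OB and none in the others.

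Of the droplet genes, Plin2, the perilipin found on droplets of most cell types, had 3104 counts in control and 3171 in siDNMT1, against 4470 in OB and 5208 in the library labelled siDNMT1_OB. Both OB libraries were higher, at 198 and 195 CPM beside 114 and 124 CPM, with log2 fold changes of 0.79 (0.72 to 0.86) and 0.65 (0.59 to 0.72). Plin4 (chr17:56100591-56109803, minus strand), a perilipin of small nascent droplets, had 35.7, 51.5, 208 and 160 CPM in the same order. The log2 fold changes were 2.54 (2.44 to 2.65) and 1.63 (1.54 to 1.72). G0s2 (chr1:193272161-193273217, minus strand), the inhibitor of the lipase encoded by Pnpla2, had 9, 17, 72 and 86 counts, with log2 fold changes of 2.99 (2.26 to 4.45) and 2.15 (1.51 to 3.12). Sncg (chr14:34370274-34374789, minus strand), γ-synuclein, which is abundant in white fat cells and neurons, had 93, 48, 182 and 86 counts, and was higher by 1.21 (0.86 to 1.61) in OB than in control.

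The mRNAs for droplet proteins of large fat cells were near absent from these libraries. Plin1 and Cidea had no count in any library, and Cidec had 1 count in OB alone. Plin5, the perilipin of tissues that burn fat, had 3 counts in control and 4 in siDNMT1, against 14 in OB and 4 in the library labelled siDNMT1_OB.

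Fabp4 (chr3:10204088-10208576, minus strand), the fatty acid binding protein aP2, was far higher in both OB libraries than in both others. It had 111 counts in control and 72 in siDNMT1, against 963 in OB and 1305 in the library labelled siDNMT1_OB, or 4.09, 2.81, 42.6 and 48.8 CPM. The log2 fold changes were 3.35 (3.10 to 3.68) and 4.08 (3.77 to 4.48). Lpl (chr8:68880491-68907448, plus strand), the lipase that frees fatty acids from lipoproteins, had few counts throughout: 10, 25, 47 and 29. It was higher by 2.27 (1.49 to 3.65) in OB than in control but differed by 0.14 (−0.67 to 0.98) in DNMT1 siRNA cells. Acsl1, which activates long-chain fatty acids, was lower on induction, from 56.8 to 36.6 CPM in control siRNA cells (−0.64, −0.76 to −0.51) and from 43 to 37.9 CPM in DNMT1 siRNA cells (−0.18, −0.31 to −0.06), within the fold both times. Slc2a4, the insulin-responsive glucose transporter GLUT4, lay under the filter but had 1 and 2 counts without induction and 11 and 13 with it, a ratio of 13.2 (1.92 to 568) in control siRNA cells and 6.22 (1.41 to 56.8) in DNMT1 siRNA cells. Cd36, the fatty acid translocase, had no counts, and Aqp7, the glycerol channel, had 3 or fewer in every library.

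The 5 members of triglyceride synthesis past the filter stayed within the fold in every comparison. Lpin1, a phosphatidate phosphatase, came closest, with 15.2 CPM in control and 15.9 in siDNMT1, against 27.5 in OB and 31.1 in the library labelled siDNMT1_OB. Its log2 fold changes on induction were 0.86 (0.68 to 1.04) and 0.96 (0.80 to 1.14), so that the intervals reach the fold. Dgat1 and Dgat2, which add the last fatty acid, lay at 25.4 to 36.5 CPM and at 3.17 to 4.78 CPM over the 4 libraries. Dgat1 was 0.40 (0.26 to 0.55) higher in OB than in control, and Dgat2 was 0.53 (0.11 to 0.97) higher. Agpat2, an acyltransferase, differed by 0.04 (−0.15 to 0.23), and Gpd1, which makes glycerol phosphate, by 0.57 (−0.25 to 1.49) on 22 and 28 counts. Pck1, a source of glycerol phosphate in fasting fat cells, had 1 count or none in every library, as did Pnpla3, a lipase and acyltransferase.

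The lipases act in sequence on the triglyceride of the droplet. Pnpla2, encoding ATGL, which starts the chain, had 16.4 CPM in control and 21.9 in siDNMT1, against 25.3 in OB and 19.7 in the library labelled siDNMT1_OB. Lipe, hormone-sensitive lipase, had 7.96, 6.21, 12.9 and 10.1 CPM, and Mgll, which releases the last fatty acid, had 114, 106, 136 and 183 counts. In OB against control they were higher by 0.63 (0.45 to 0.81), 0.69 (0.43 to 0.95) and 0.51 (0.15 to 0.89) on the log2 scale, all within the fold. In DNMT1 siRNA cells Lipe and Mgll differed by 0.69 and 0.71, whereas Pnpla2 differed by −0.15 (−0.32 to 0.03).

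The adipokine members and Ucp1 gave almost no reads. Lep and Retn, encoding leptin and resistin, had no count in any library. Adipoq, encoding adiponectin, had 1 count in siDNMT1, 2 in OB and none elsewhere, and Cfd, encoding adipsin, had 2 counts in control alone. Ucp1, the uncoupling protein of brown fat, had 1 count, in the library labelled siDNMT1_OB. Car3, a carbonic anhydrase abundant in white fat, had 2, 2, 8 and 3 counts. Of the 8 genes listed as markers of mature adipocytes, 7 had 3 counts or fewer in every library, 3 of them none, and Fabp4 carried nearly all of their summed level, which was 4.17 CPM in control and 2.85 in siDNMT1, against 42.8 in OB and 48.8 in the library labelled siDNMT1_OB.

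The DNMT1 siRNA comparison in untreated cells asked which members differed before induction. In siDNMT1 against control 2 members were higher and none was lower, beside 1.97% and 1.37% of all genes tested. Cebpa was higher by 1.34 (0.97 to 1.76), from 2.88 to 7.38 CPM. Lpl was higher by 1.24 (0.30 to 2.63), from 10 to 25 counts. The median of the 21 was 0.06 beside −0.001 over all genes tested, with 12 above 0 and 9 below. Within the fold, Plin4 differed by 0.53 (0.41 to 0.65) and Pnpla2 by 0.41 (0.23 to 0.60). Over the 21, intervals lay wholly above 0 for 6 members, Cebpa and Lpl among them, and wholly below it for 6. This was 28.6% each, beside 26.0% and 26.8% of all genes tested. Those below were Sncg at −0.84 (−1.41 to −0.35), Ebf2 at −0.58 (−1.15 to −0.06), Klf5 at −0.54 (−0.82 to −0.27), Fabp4 at −0.53 (−0.99 to −0.10), Acsl1 at −0.40 (−0.52 to −0.29) and Lipe at −0.36 (−0.66 to −0.06). Pparg did not differ beyond counting error, at 0.00 (−0.13 to 0.14).

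After induction, comparing the library labelled siDNMT1_OB with OB, no member was higher and 1 was lower, beside 2.36% and 1.37% of all genes tested. Sncg was the lower member, at 3.21 CPM beside 8.05, a log2 fold change of −1.30 (−1.71 to −0.95). In untreated cells it was also lower with DNMT1 siRNA, within the fold. The median of the 21 was −0.34 beside 0.01 over all genes tested, with 13 members below 0 and 8 above. The median was smaller in size without the expression filter, where 6 of all 37 members were past the fold (16.2%, beside 6.0% of all genes). With a mean of at least 5 CPM asked for, none of 15 was past it, beside 2.37%, and Sncg was not tested. For 10 of the 21 the counting interval lay wholly below 0, and for 2, Fabp4 and Lpin1, wholly above it, where 23.6% of all genes tested lay below and 27.6% above. Those below included Pparg at −0.50 (−0.63 to −0.37), Klf5 at −0.66 (−0.83 to −0.48), Dgat1 at −0.51 (−0.66 to −0.36), Plin4 at −0.38 (−0.44 to −0.32) and Ebf1 at −0.38 (−0.44 to −0.31). Fabp4 was at 0.20 (0.07 to 0.32). Dnmt1 itself was not lower in this pair, so these values compare the libraries as labelled.

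**Figure D3:**
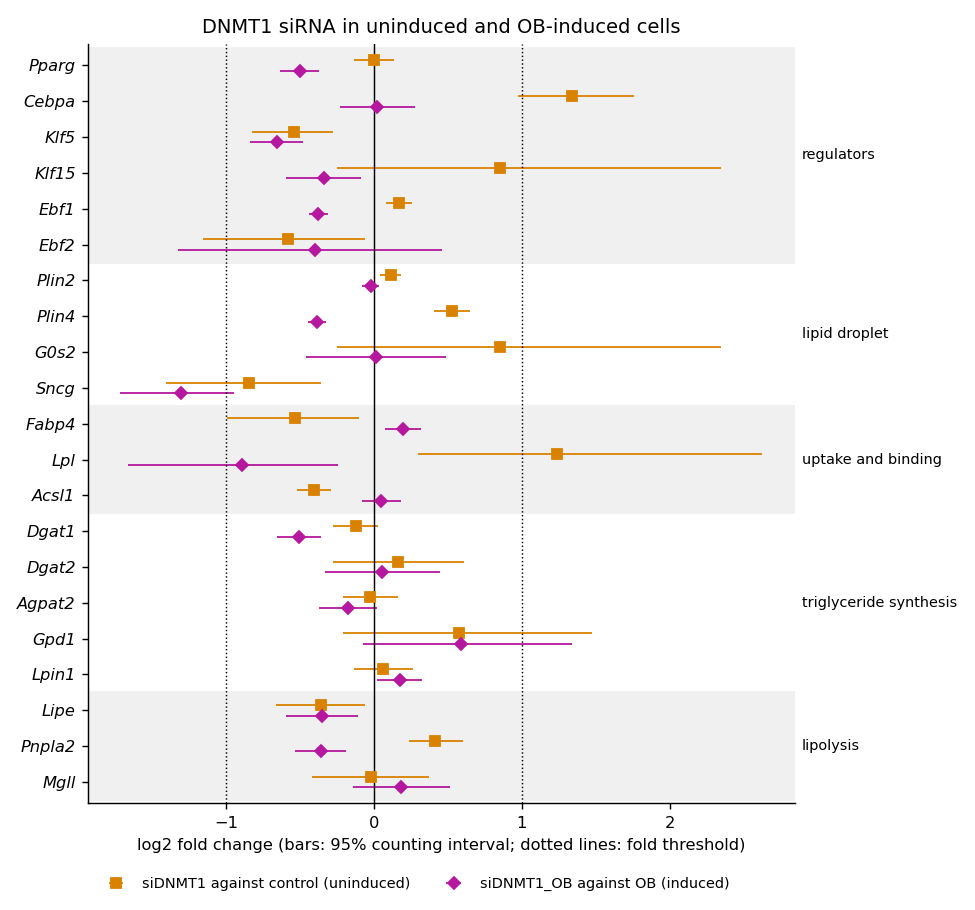
Log2 fold change with DNMT1 siRNA for each of the 21 members, in untreated cells (siDNMT1 against control) and after OB induction (library labelled siDNMT1_OB against OB), with 95% counting intervals and lines at the fold used for calling. Cebpa and Lpl lie past the fold in untreated cells, and Sncg lies past it in the other direction after induction.

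The difference between these siRNA effects, OB pair minus untreated pair, was past the fold for 3 members, all negative, and for none in the positive direction, beside 2.95% and 3.27% of all genes tested. They were Lpl at −2.13 (−3.60 to −1.09), Cebpa at −1.31 (−1.79 to −0.88) and Klf15 at −1.19 (−2.53 to −0.15). The median over the 21 was −0.15 beside 0.00 over all genes tested. The counting interval, here a normal approximation on the log counts, lay below 0 for 9 members and above it for 2, Fabp4 and Acsl1, where 23.4% of all genes with a count in every library lay below 0 and 27.4% above. The same quantity is the difference between the OB effects in DNMT1 siRNA and control siRNA cells, so a negative value is also a lower log2 fold change on induction in the DNMT1 siRNA cells. For Cebpa the untreated level in siDNMT1 was higher and the induced levels were equal within counting error. For Klf15 the induced level was 9.45 CPM in the library labelled siDNMT1_OB beside 12 CPM in OB, while the untreated levels rest on 9 and 17 counts.

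**Figure D4:**
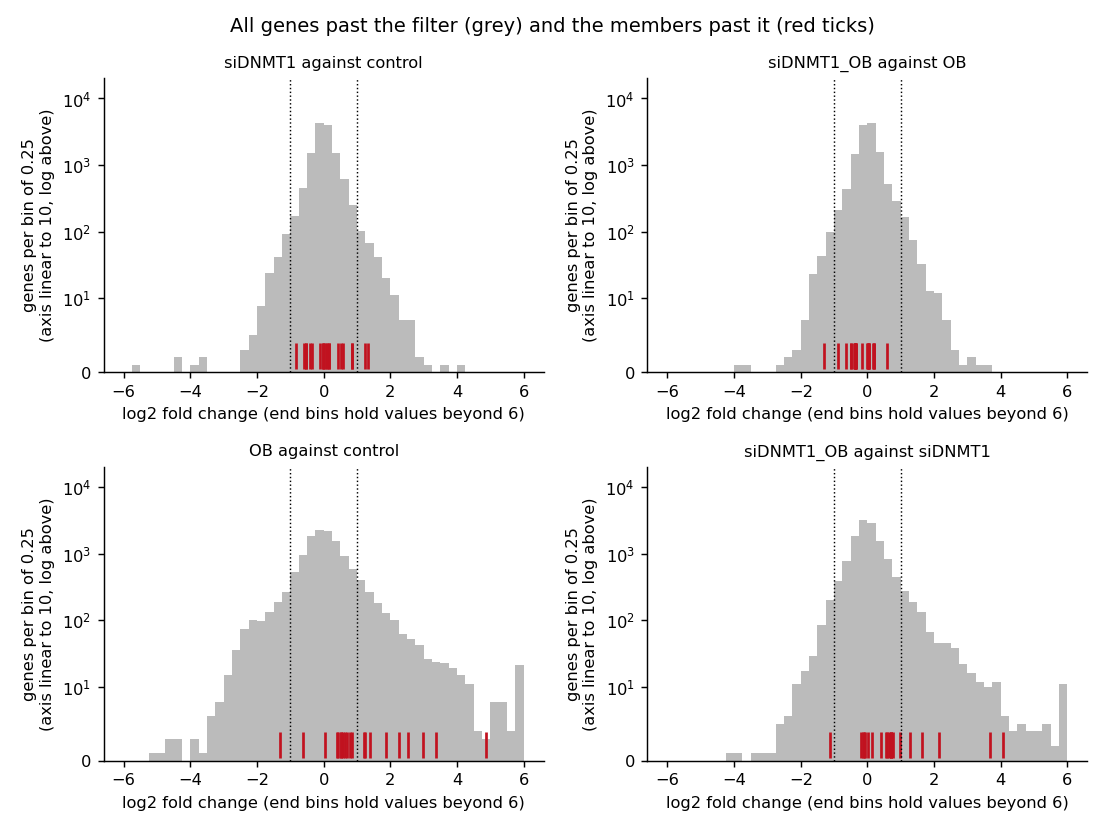
Histograms of the log2 fold change over the genes tested in each comparison, with marks for the members past the filter. The end bins hold values beyond 6 in size, and in OB against control 19 of 21 members lie to the right of 0.

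A wider list of 113 genes of the same pathways, none of them a member, was read beside the members, and 86 passed the filter. In OB against control 16 were higher and 6 were lower (18.6% and 6.98%, beside 10.6% and 7.1% of all genes tested), with a median of 0.06. In DNMT1 siRNA cells 10 were higher and 4 were lower on induction (11.6% and 4.65%, beside 6.83% and 2.71%), with a median of 0.06. In siDNMT1 against control 1 was higher and 2 were lower (1.16% and 2.33%, beside 1.97% and 1.37%), with a median of −0.01. In the library labelled siDNMT1_OB against OB 2 were higher and 2 were lower (2.33% each, beside 2.36% and 1.37%), with a median of −0.06. The siRNA shares of the related genes were thus near those of all genes. For the difference of the siRNA effects 1 was positive past the fold and 2 were negative, with a median of −0.05. These were 1.16% and 2.33%, beside 3.27% and 2.95% of all genes tested. Of the 12 related genes of triglyceride synthesis past the filter, 3 were higher and 1 was lower in OB than in control. In the same comparison 2 of 10 droplet genes, 2 of 9 lipolysis genes, 1 of 13 uptake and binding genes and 3 of 8 insulin and adipokine response genes were higher, and none of these was lower. The 3 thermogenic related genes past the filter, Cpt1a, Nrip1 and Tbx1, were within the fold in every comparison.

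Among the early activators of adipogenesis, 5 of 16 were higher and 2 were lower in OB than in control, beside 10.6% and 7.1% of all genes tested, and 4 were higher and 1 was lower on induction in DNMT1 siRNA cells, beside 6.83% and 2.71%. Cebpd, encoding C/EBPδ, went from 33.3 to 201 CPM (2.59, 2.49 to 2.70) in control siRNA cells and from 40.8 to 176 CPM (2.11, 2.01 to 2.21) in DNMT1 siRNA cells. Cebpb, encoding C/EBPβ, differed by 0.19 (0.04 to 0.34) and 0.05 (−0.08 to 0.18), and Nr3c1, the glucocorticoid receptor, by −0.39 (−0.47 to −0.31) and −0.28 (−0.36 to −0.20), all within the fold. Both were named after their values were seen. Zfp467, a zinc finger cofactor that favours fat over bone formation, had 25, 38, 131 and 204 counts. Egr2, encoding Krox20, an early inducer of Cebpb, was lower, with 328, 489, 52 and 109 counts and log2 fold changes of −2.36 (−2.85 to −1.97) and −2.21 (−2.54 to −1.93).

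Of 15 inhibitors of adipogenesis none was higher and 3 were lower in OB than in control, beside 10.6% and 7.1% of all genes tested. In DNMT1 siRNA cells 1 was higher and 2 were lower on induction, beside 6.83% and 2.71%. The higher one, named after its values were seen, was Klf2, a Krüppel-like factor that represses Pparg, with 501 counts in siDNMT1 and 1236 in the library labelled siDNMT1_OB (1.24, 1.09 to 1.39). Dlk1, preadipocyte factor 1, had 116 counts in control and 131 in siDNMT1, against 9 in OB and 50 in the library labelled siDNMT1_OB. It was lower in OB than in control by −3.19 (−4.59 to −2.45), and the library labelled siDNMT1_OB held more than OB, by 2.03 (1.19 to 3.44). Trib3, a pseudokinase that restrains AKT, had 68.4, 106, 18.9 and 34.1 CPM. Both were thus lowest in OB.

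Nr1h3, encoding the oxysterol receptor LXRα, had 4, 6, 62 and 47 counts, and was higher by 3.64 (2.79 to 6.14) in OB than in control. Vldlr, the receptor for very low density lipoprotein, had 1948, 2603, 942 and 960 counts. It was lower on induction in DNMT1 siRNA cells by −1.50 (−1.61 to −1.40). In control siRNA cells it differed in the same direction, by −0.79 (−0.90 to −0.67), within the fold. In siDNMT1 against control it differed by 0.50 (0.41 to 0.59).

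The same related genes stood past the fold in both siRNA pairs, apart from Dlk1. Fabp3, a fatty acid binding protein of heart and muscle, had 7 counts in control and 26 in siDNMT1, against 38 in OB and 141 in the library labelled siDNMT1_OB, higher by 1.70 (0.73 to 3.42) and 1.60 (1.12 to 2.21) with DNMT1 siRNA. Angptl4, a secreted inhibitor of lipoprotein lipase, had 11, 4.37, 12.1 and 4.63 CPM, lower by −1.32 (−1.66 to −1.02) and −1.37 (−1.70 to −1.07). Gpd2, the mitochondrial glycerol phosphate dehydrogenase, had 111, 46.4, 90.8 and 45 CPM, lower by −1.25 (−1.35 to −1.16) and −1.01 (−1.12 to −0.91). For these 3 genes each siDNMT1 library lay on the same side of its own control, and the pairs share no library.

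**Figure D5:**
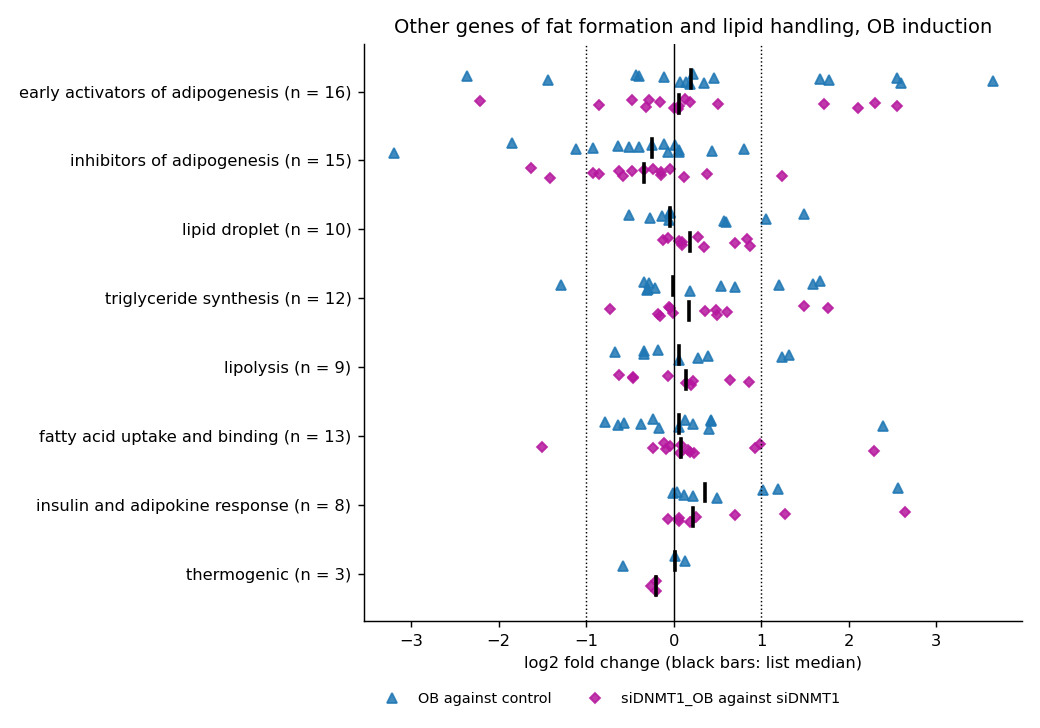
Log2 fold change with OB induction for each related gene past the filter, by list. Values are for control siRNA cells (OB against control) and DNMT1 siRNA cells (library labelled siDNMT1_OB against siDNMT1). Black bars mark list medians and dotted lines the fold used for calling. In OB against control the median was 0.20 for the early activators and −0.25 for the inhibitors of adipogenesis.

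Of the 21 members past the filter, 7 overlap exons of another counted gene on the opposite strand, and the use of strand in counting is not given in the sources used here. Cebpa shares 51 bases with Gm45091, which had 4 to 9 counts, and Plin4 shares 17 of 5777 bases with Hdgfl2. The others are Ebf2, Acsl1, Agpat2, Gpd1 and Lipe, and reads from the shared bases cannot be assigned. Without these 7 the count of higher members in siDNMT1 against control was 1, Lpl. With a mean of at least 5 CPM asked for in place of 1, the members past the fold in OB against control numbered 6 of 15 in place of 10 of 21, or 40.0% in place of 47.6%, beside 14.4% in place of 17.7% of all genes tested, and Sncg was no longer among those tested after induction.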

How the data were processed

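Poly(A) RNA was sequenced in 4 samples of C3H10T1/2 cells, 1 library per group. The authors deposited raw, unnormalized whole-number counts for each gene. The submitters' processing notes name Trimmomatic, HISAT2, featureCounts and the build mm10. Versions, strand setting and treatment of multiply mapped reads are not given in the sources used here. Of 54409 genes shared with GENCODE M21 (GRCm38), 53499 (98.3%) had the same span, so coordinates are on GRCm38.

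The filter, a mean of 1 CPM or more, kept 13233 of 54532 genes. TMM factors from edgeR 4.0.16 (R 4.3.3) lay between 0.991 and 1.01. Log2 fold changes used a prior count of 2, and genes at least 1 in size were called. With 1 library per group no test was run. Intervals are exact (Clopper-Pearson) at 95% for a ratio and, for a difference of siRNA effects, a normal approximation on the log counts, all from counting error only. Libraries held 27367792 counts in control and 25608719 in siDNMT1, against 22296046 in OB and 26912489 in siDNMT1_OB. The scripts were tested on simulated data.

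The members and gene lists were chosen with earlier results of these data known. Every member past the filter was named, the related genes past the fold were named up to 3 in each direction per comparison (1 of them is not reported here), and promoters were matched by symbol to RefSeq (27 of 37 members). Other scalings (total counts, upper quartile, DESeq2 1.42.0 size factors, and TMM over all genes, the last chosen after seeing the data), filters, prior counts of 0.5 and 5, a call rule that adds the counting interval and the removal of overlapping genes were tried.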

Additional observations from a re-analysis of the deposited data

Results flagged for a closer look

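For 5 members the DNMT1 siRNA libraries lay on opposite sides of their controls in untreated cells and after induction, each beyond counting error. This was 23.8% of the 21 members past the filter, beside 12.6% of all 13233 genes tested. With 1 library per group the difference was not tested against replicates. In log2 units, OB pair minus untreated pair, it was −0.55 for Ebf1, −0.91 for Plin4, 0.72 for Fabp4, −2.13 for Lpl and −0.78 for Pnpla2. Ebf1, Plin4, Lpl and Pnpla2 exceeded control in siDNMT1 and fell short of OB in the library labelled siDNMT1_OB, and Fabp4 did the reverse. Lpl rests on 10 to 47 counts per library. Dnmt1 was not lower with DNMT1 siRNA after induction, and its part in these differences was not tested.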

How the results depend on the processing

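Under the 10 alternatives no median changed sign, and all 648 values of single members stayed within their own counting interval. Of those, 8 values changed sign, all of them at most 0.042 in size as reported, such as Cebpa and G0s2 after induction (0.02 and 0.01, against −0.005 and −0.015 with total counts) and Agpat2 in OB against control (0.04, against −0.002 with TMM over all genes). Without the expression filter, 6 members in place of 1 were past the fold in the library labelled siDNMT1_OB against OB. This was 16.2% of all 37, beside 6.0% of all genes, and the median was −0.022 in place of −0.34. For the difference of the siRNA effects 8 members in place of 3 were past the fold (21.6%, beside 9.87%). The other medians then were 0.000 in place of 0.06 in siDNMT1 against control, 0.65 in place of 0.79 in OB against control and 0.28 in place of 0.65 in the DNMT1 siRNA cells on induction. Related genes past the fold then numbered 9 in place of 3 in siDNMT1 against control, 7 in place of 4 in the library labelled siDNMT1_OB against OB, and 14 in place of 3 for the difference. The shares of all genes were 4.76%, 6.0% and 9.87% in the same order. By construction these counts add genes with few or no reads. With the filter at 5 CPM, 15 members in place of 21 were tested. Those past the fold numbered 1 in place of 2 in siDNMT1 against control (6.67%, beside 1.86% of all genes tested). In the OB pair they numbered 0 in place of 1, beside 2.37%. In OB against control they numbered 6 in place of 10 (40.0%, beside 14.4%). Related genes past the fold numbered 2 in the OB pair and 1 for the difference, beside 2.37% and 3.68% of all genes tested. Without the members that overlap a counted gene, 1 member was past the fold in siDNMT1 against control. The scaling, prior count and interval alternatives left every count of members within 1.5 times its value. No paired analysis was possible because each group was 1 library with no replicate number. No replicate could be left out for the same reason, and differences between dishes cannot be told apart from the treatments. Members with under 20 counts in a library, such as Klf15, G0s2 and Lpl, are limited by depth.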
